A study of Mus musculus with 30 samples.

Results

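The 8 genes described here are 7 members of the poly(ADP-ribose) polymerase (PARP) family, Parp9, Parp14, Parp10, Parp11, Parp12, Parp8 and Parp1, and Dtx3l, a Deltex E3 ubiquitin ligase whose gene lies head to head with Parp9. They were taken by name from the 54146 genes of the count table, and all 8 had an identifier there. The rule for taking them used no measured values, but the 8 genes were chosen with earlier results of these data known. Their levels and their responses to interferon gamma (IFNG) were followed in 5 clones of J774A.1, a mouse macrophage-like cell line. WT1, WT2 and WT3 are wild-type (WT) clones, grown from single cells that were not electroporated. KO1 and KO2 are knockout (KO) clones, electroporated with Cas9 and a pair of guide RNAs, in which the B2_Mm2.Dicer1 element, a SINE B2 repeat in the first intron of Dicer1 on chromosome 12, was deleted on both alleles. Each clone was left untreated (UT) or was given IFNG at 100 ng/mL, a 4 h exposure, and 3 RNA-seq libraries (called a, b and c in the order of the table) were made for each clone and treatment, 30 libraries in all. The 3 libraries of a clone are not independently edited cells, and the WT clones did not go through the electroporation, so effects of the deletion, of the electroporation and of the choice of clones cannot be told apart.

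PARP enzymes transfer ADP-ribose from NAD to proteins and nucleic acids. Parp1 builds long chains at DNA breaks and is expressed in most cells, whereas Parp10, Parp11, Parp12 and Parp8 add single ADP-ribose units. Parp9 and Parp14 also carry macrodomains, which bind ADP-ribose, and the Parp9 protein works in a complex with Dtx3l. Several PARP genes are known interferon-stimulated genes. Gamma-activated sites (GAS) and interferon-stimulated response elements (ISRE) are the DNA motifs through which interferons are known to act on such genes, and interferon regulatory factors bind the latter.

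In the mm10 annotation, 3 of the genes form a cluster on chromosome 16. Parp9 (ENSMUSG00000022906.15) lies at chr16:35938470-35972605 on the plus strand and Dtx3l (ENSMUSG00000049502.17) at chr16:35926511-35939151 on the minus strand, so that their 5′ parts overlap by 682 bases, of which 458 are exonic in both. Parp14 (ENSMUSG00000034422.14) lies at chr16:35832874-35871544 on the minus strand, 54966 bases from the end of Dtx3l. Fragments were counted by strand, which separates Parp9 from Dtx3l. Parp10 (ENSMUSG00000063268.12) lies at chr15:76231174-76243441, Parp11 (ENSMUSG00000037997.12) at chr6:127446840-127494261, Parp12 (ENSMUSG00000038507.6) at chr6:39086410-39118349, Parp8 (ENSMUSG00000021725.9) at chr13:116854820-117025537 and Parp1 (ENSMUSG00000026496.11) at chr1:180568924-180601254.

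RefSeq promoter windows of 300 bases (GRCm38.p6, 250 before to 50 after a start site) were found for 5 of the 8 genes, with 6 windows in all because Parp11 has 2. Parp9, Parp14 and Parp10 were not in that table. Each window was searched on both strands for the GAS letters TTCNNNGAA and for an ISRE core, which is GAAA and a further GAAA with 2 bases of any kind between them. The 1 window with a match to either was the upstream window of Parp11, which held both, whereas 8.3% of all 32851 promoter windows held a GAS match, 3.44% an ISRE core match and 0.454% both. The Parp11 stretch is shown because of these matches, and the Dtx3l stretch because it lies next to the Parp9 and Dtx3l starts and outside the exons of both genes. The Parp11 sequence is chr6:127446590-127446839, plus strand, and its capitals mark the ISRE core match (GAAATCGAAA on the opposite strand, at -44 to -35 from the start) and the GAS match that overlaps it (TTCTTGGAA, at -37 to -29). The Dtx3l sequence is chr16:35939207-35939277, minus strand, at -250 to -180 from the RefSeq start of Dtx3l, and has no capitals because neither set of letters was found in the Dtx3l window.
Parp11: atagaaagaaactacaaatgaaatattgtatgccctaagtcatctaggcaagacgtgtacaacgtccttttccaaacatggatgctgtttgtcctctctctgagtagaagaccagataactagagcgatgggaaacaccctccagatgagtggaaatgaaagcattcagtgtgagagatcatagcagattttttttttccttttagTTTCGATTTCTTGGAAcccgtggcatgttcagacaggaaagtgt
Dtx3l: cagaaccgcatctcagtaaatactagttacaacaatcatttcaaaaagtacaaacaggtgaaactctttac
A match of letters is a description of the sequence, and no binding data for these windows were used here.

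Libraries held 15566122 to 37992642 counted fragments (median 23682133.5). As a check of the treatment, Irf1, an IFNG-induced transcription factor, rose with a log2FC of 5.10 (SE 0.066, adjusted p = 3.07e-21) in pooled WT. Dicer1 was lower in KO than in WT libraries by 0.43 on the log2 scale when untreated (SE 0.11, adjusted p = 0.00689) and by 0.80 after IFNG (SE 0.089, adjusted p = 1.35e-05). The untreated difference was -0.74 in KO1 (adjusted p = 4.13e-05) and -0.18 in KO2 (adjusted p = 0.179). The deletion itself lies in an intron and cannot be read from these counts. All 8 macrophage markers were detected in every group, with summed levels of 4730 to 6093 counts per 1000000 counted fragments (CPM) in untreated WT and 6460 to 7388 CPM in untreated KO libraries. The 7 markers of other cell types summed to at most 1.71 CPM in any library.

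When untreated cells were compared gene by gene, Parp1 had by far the highest level and Parp8 was close to absent. On the scale of CPM per kb of annotated exon, the only scale used here to compare different genes, Parp1 had a median of 62.7 over the 15 untreated libraries, Parp12 12.99, Parp9 7.41, Parp10 6.10, Parp14 5.49, Dtx3l 4.80, Parp11 1.74 and Parp8 0.0235. The ranges of neighbours in this order overlapped for Parp9 and Parp10, for Parp10 and Parp14, and for Parp14 and Dtx3l. After IFNG the order was Parp14 (66.9), Parp1 (57.5), Parp9 (43.4), Parp12 (36.03), Dtx3l (34.9), Parp10 (16.4), Parp11 (4.62) and Parp8 (0.0926). Parp14 thus moved from place 5 to place 1, above Parp1 in 13 of 15 libraries, although the ranges of all neighbours from Parp14 down to Dtx3l overlapped. The chromosome 16 genes Parp9, Dtx3l and Parp14 made up a median of 17.5% (15.3% to 18.9%) of the summed per-kb level of the 8 genes in untreated libraries and 55.3% (52.9% to 59.0%) after IFNG. Over the same libraries the share of Parp1 went from 61.5% to 21.4%.

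**Figure D1:**
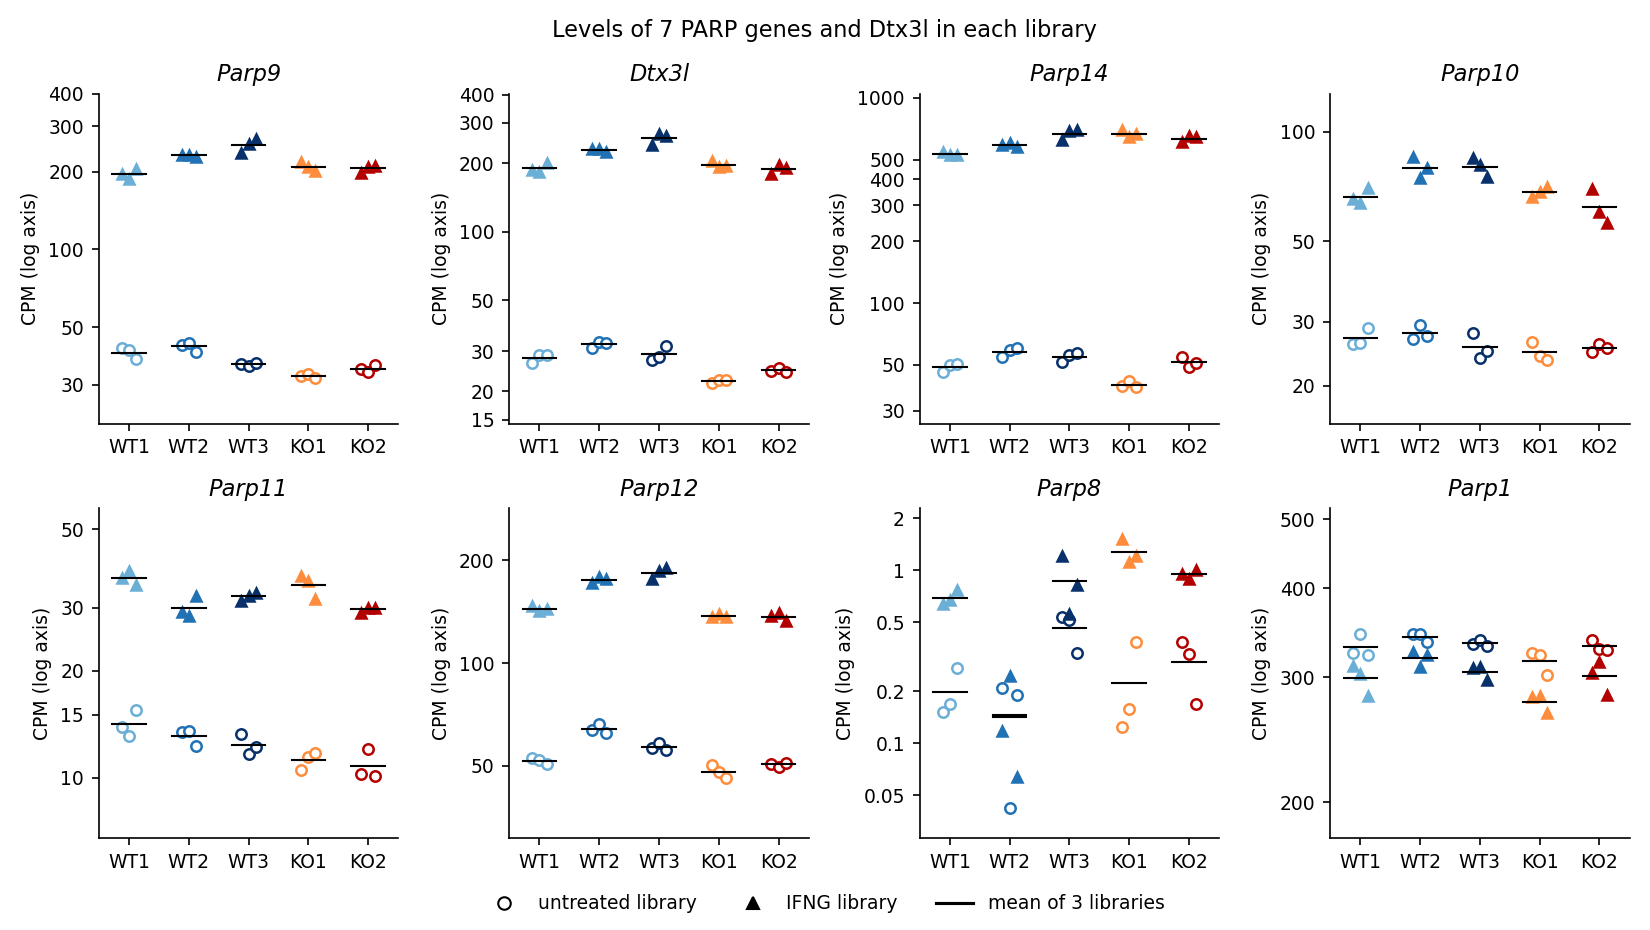
Level of each gene in CPM (log axis, own scale in each panel) in the 30 libraries, by clone, with open circles for untreated and filled triangles for IFNG libraries and a bar at the mean of 3 libraries. The treated and untreated libraries of Parp9, Dtx3l, Parp14, Parp10, Parp11 and Parp12 lie apart in every clone, whereas the levels of Parp1 differ little and Parp8 stays at or below 1.52 CPM.

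The response to IFNG was measured for each clone, and for the WT clones and the KO clones pooled, by edgeR's quasi-likelihood test, with Benjamini-Hochberg adjustment over all genes tested and a threshold of 0.05. In pooled WT, 7 of the 8 genes passed the count filter, 6 of these rose and Parp1 fell, while 28.6% of all 13423 genes tested passed the threshold, 14.8% upward and 13.9% downward. Parp8 did not pass the filter there. In pooled KO all 8 genes were tested, 7 rose and Parp1 fell, against 30.7% of all genes called, 15.8% upward and 14.8% downward. Parp8 passed the filter in pooled KO mainly through its treated libraries (20 to 42 fragments, against 3 to 11 untreated). The same held in WT1, KO1 and KO2, so the calls of Parp8 in these counts carry that limit. The median log2FC of the genes tested was 1.55 in pooled WT (7 genes) and 1.82 in pooled KO (8 genes), and that of all genes tested was -0.0028 and -0.0037. The first 2 medians are over different genes, because Parp8 (log2FC 2.08 in pooled KO) enters only the KO value, and do not compare the genotypes. The genes called numbered 7 of 8 tested in WT1 (21.2% of all genes), 6 of 7 in WT2 (34.5%), 8 of 8 in WT3 (36.1%), 8 of 8 in KO1 (29.4%) and 8 of 8 in KO2 (27.1%). Parp9, Dtx3l, Parp14, Parp10, Parp11 and Parp12 rose in all 5 clones, and each IFNG library was above each untreated library for all 6 genes in both pooled comparisons, a pattern that 6.8% of all genes showed in pooled WT and 10.2% in pooled KO.

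Parp14, a mono-ADP-ribosyltransferase that also acts as a cofactor of STAT6, had the largest response of the 8 genes. Untreated libraries held 46.4, 50.1 and 50.7 CPM in WT1, 54.4, 58.9 and 60.2 CPM in WT2, 51.4, 56.0 and 57.0 CPM in WT3, 39.6, 42.0 and 38.9 CPM in KO1 and 54.9, 48.7 and 51.1 CPM in KO2. After IFNG the libraries held 544.2, 526.5 and 527.6 CPM in WT1, 586.2, 601.2 and 577.7 CPM in WT2, 622.4, 686.1 and 699.2 CPM in WT3, 698.9, 647.3 and 663.2 CPM in KO1 and 607.0, 647.9 and 643.9 CPM in KO2. The untreated KO1 libraries were the 3 lowest of all, and the treated KO1 libraries lay among the highest, so the gap was widest in KO1. The level rose 11.1-fold in pooled WT (log2FC 3.48, SE 0.070, adjusted p = 1.93e-18), the 94th highest log2FC of 13423 genes, and 14.3-fold in pooled KO (log2FC 3.84, SE 0.088, adjusted p = 8.78e-14). By clone the log2FC was 3.43 in WT1, 3.36 in WT2, 3.62 in WT3, 4.09 in KO1 and 3.62 in KO2.

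Dtx3l was at 26.6 to 32.8 CPM (median 28.8) in the 9 untreated WT libraries and at 183.2 to 269.4 CPM (median 231.0) in the 9 treated ones. In KO clones it was at 21.6 to 25.3 CPM (median 23.3) when untreated and at 178.6 to 204.0 CPM (median 193.5) after IFNG. All 6 untreated KO libraries lay below all 9 untreated WT libraries, while the treated libraries of both genotypes overlapped. The level rose 7.62-fold in pooled WT (log2FC 2.93, SE 0.080, adjusted p = 1.61e-16) and 8.27-fold in pooled KO (log2FC 3.05, SE 0.049, adjusted p = 1.68e-15).

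Parp9, the partner of Dtx3l, was at 35.5 to 43.6 CPM (median 40.2) in untreated and at 187.5 to 267.4 CPM (median 232.4) in treated WT libraries. The KO libraries held 31.8 to 35.7 CPM (median 33.4) and 197.3 to 218.8 CPM (median 208.1). As for Dtx3l, the highest treated values came from WT3 and the lowest untreated values from KO1. The rise was 5.79-fold in pooled WT (log2FC 2.53, SE 0.071, adjusted p = 2.49e-16) and 6.23-fold in pooled KO (log2FC 2.64, SE 0.039, adjusted p = 9.23e-16).

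**Figure D2:**
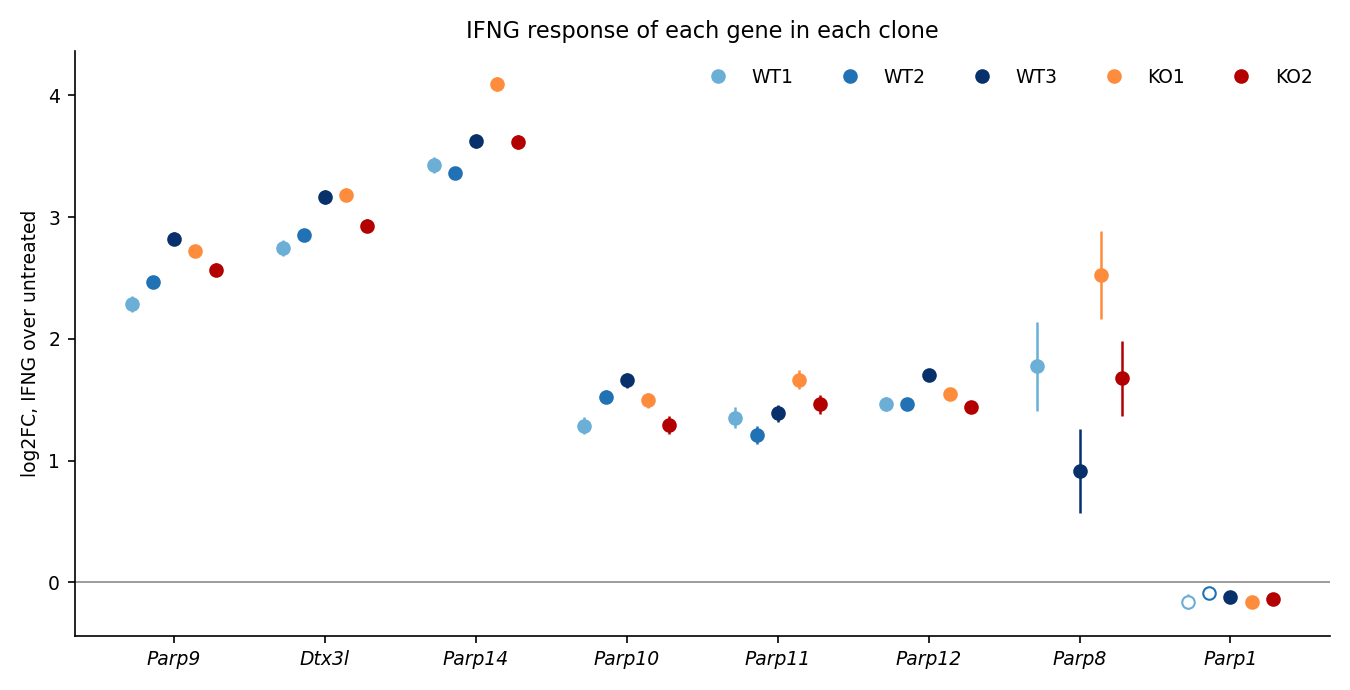
IFNG response of each gene in each clone, as log2FC of treated over untreated libraries (vertical axis) with its standard error, where filled points passed an adjusted p of 0.05. Parp14, Dtx3l and Parp9 had the largest responses of the 8 genes in all 5 clones, Parp10, Parp11 and Parp12 lay between 1.21 and 1.71, and Parp1 lay just under 0. Parp8 has no point in WT2 because it was not tested there.

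The members of the head-to-head pair did not rise by the same factor. From the summed counts of a clone, the ratio of Dtx3l to Parp9 fragments per kb went from 0.599 to 0.822 in WT1, from 0.645 to 0.844 in WT2, from 0.681 to 0.868 in WT3, from 0.581 to 0.802 in KO1 and from 0.607 to 0.780 in KO2. Over single libraries it was 0.546 to 0.737 when untreated and 0.764 to 0.897 after IFNG, with no overlap. The log2 of the ratio rose by a mean of 0.40 ± 0.053 (SD over 5 clones), in 5 of 5 clones, with p = 0.0625 in a two-sided exact sign-flip permutation test over clones, the smallest value that 5 clones can give. Dtx3l therefore had the larger fold response in each clone, and Parp9 kept the higher per-kb level in all 30 libraries.

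**Figure D3:**
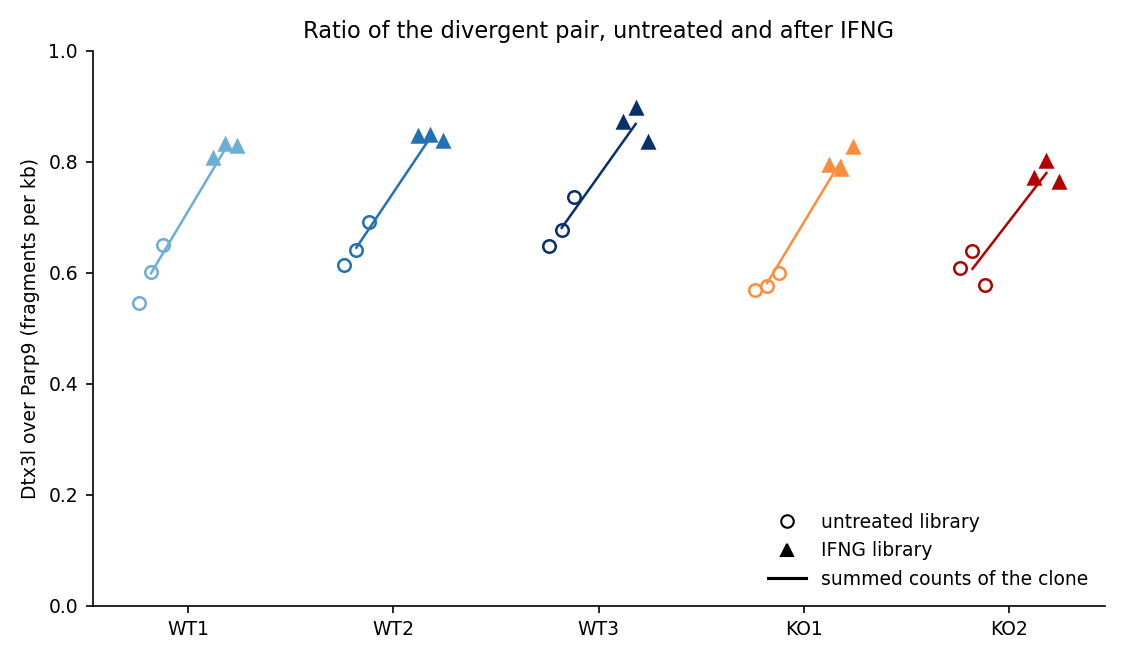
Ratio of Dtx3l to Parp9 (fragments per kb of exon, axis from 0) in each library, with open circles for untreated and triangles for IFNG libraries and a line joining the ratios of the summed counts of each clone. The ratio is higher after IFNG in all 5 clones and stays below 1 in all 30 libraries.

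Within 250 kb of the span from Parp14 to Parp9, 29 genes were annotated and 11 were tested in pooled WT, of which 8 were not among the genes described here. One of these 8 rose, Gm49730, an unnamed gene model, with a log2FC of 3.60 (SE 0.11, adjusted p = 7.41e-16). It lies within the span of Parp14 on the same strand and shares 110 exonic bases with it, and fragments over these bases were counted for both genes, so its value is uncertain. Dirc2 fell by 0.46 (SE 0.11, adjusted p = 0.00327) and Hspbap1 fell by 0.28 (SE 0.087, adjusted p = 0.0178) on the log2 scale, but the Dirc2 call was lost without WT2 (adjusted p = 0.0748) and the Hspbap1 call without WT1 (adjusted p = 0.0575) or WT3 (adjusted p = 0.14). Kpna1, which encodes an importin that carries proteins into the nucleus, had a log2FC of 0.057 (SE 0.045, adjusted p = 0.43). Gm15564, Wdr5b, Fam162a and Ccdc58 did not pass the threshold either. The large responses of this stretch were thus those of Parp14, Dtx3l and Parp9 and of the model inside Parp14.

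**Figure D4:**
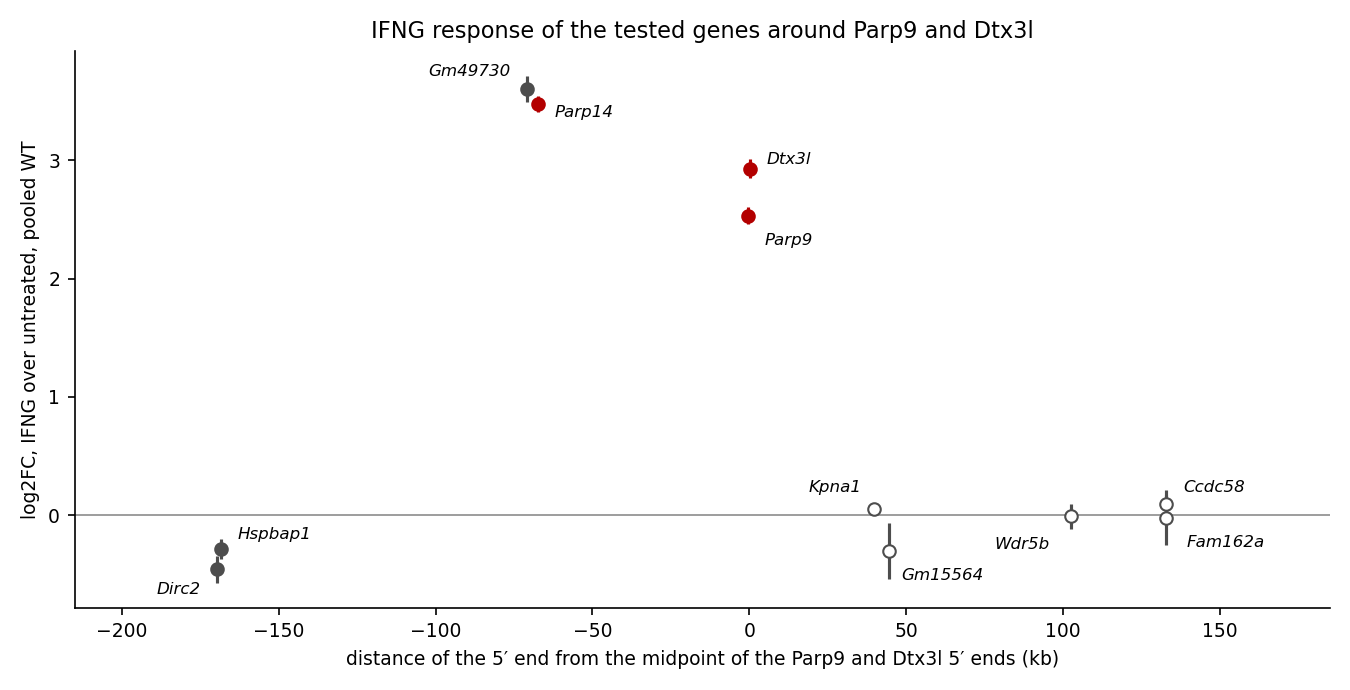
IFNG response in pooled WT (log2FC with its standard error) of the 11 tested genes around the Parp9 and Dtx3l pair, against the distance of each 5′ end from the midpoint of the pair in kb. Red points are genes described here, and filled points passed an adjusted p of 0.05. Parp14, Dtx3l, Parp9 and Gm49730 lie between 2.53 and 3.60 and the other 7 genes lie between -0.46 and 0.093.

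The 3 other clearly expressed mono-ADP-ribosyltransferase genes rose by smaller and similar factors. Parp12, a CCCH zinc-finger member of the family with antiviral activity, was at 50.6 to 66.2 CPM (median 56.4) in untreated WT libraries and at 142.0 to 189.4 CPM (median 176.6) after IFNG, a 2.93-fold rise (log2FC 1.55, SE 0.071, adjusted p = 7.05e-13). Parp10 was at 23.8 to 29.3 CPM (median 26.8) and at 63.6 to 85.0 CPM (median 75.1), a 2.82-fold rise (log2FC 1.5, SE 0.062, adjusted p = 1.57e-13). Parp11, a WWE-domain member found at the nuclear envelope, was at 11.6 to 15.5 CPM (median 13.3) and at 28.4 to 38.10 CPM (median 32.5), a 2.50-fold rise (log2FC 1.32, SE 0.063, adjusted p = 1.45e-12). None of these ranges overlapped between treatments, and over single clones the log2FC stayed between 1.21 and 1.71. In pooled KO the rises were 2.80-fold for Parp12, 2.62-fold for Parp10 and 2.95-fold for Parp11. Parp10 shares 205 exonic bases on the same strand with Plec, a highly counted cytoskeletal linker gene, and fragments there were counted for both. Plec fell by 0.18 on the log2 scale in pooled WT (SE 0.050, adjusted p = 0.00852), and its part in the Parp10 values was not tested.

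Parp8, another mono-ADP-ribosyltransferase gene, was the exception among these enzymes because it was barely counted. Untreated libraries held 1 to 15 fragments (0.0422 to 0.533 CPM), treated WT libraries 1 to 29 fragments (0.0633 to 1.2 CPM) and treated KO libraries 20 to 42 fragments (0.894 to 1.52 CPM). It rose in WT1 (log2FC 1.77, SE 0.36, adjusted p = 0.00245), WT3 (0.91, SE 0.35, adjusted p = 0.0483), KO1 (2.53, SE 0.36, adjusted p = 9.6e-05) and KO2 (1.67, SE 0.31, adjusted p = 0.000706). In WT2, where Parp8 was not tested, the untreated libraries held 0.0422 to 0.208 CPM and the treated ones 0.0633 to 0.246 CPM. Untreated libraries held 4 to 8 fragments in WT1, 3 to 10 in KO1 and 5 to 11 in KO2. Treated ones held 13 to 19, 21 to 42 and 20 to 35, against a filter minimum of 10. In WT1, KO1 and KO2 Parp8 thus entered the test mainly through its treated libraries, and its calls there are not independent of the filter. The call in WT3 was lost without any 1 of 5 of its 6 libraries (adjusted p 0.0769 to 0.315) and under DESeq2 (adjusted p = 0.169).

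Parp1, the main poly(ADP-ribose) polymerase of the DNA damage response, was the 1 gene of the 8 that fell. The untreated WT libraries held 322.3 to 345.3 CPM (median 336.5) and the treated ones 281.9 to 325.4 CPM (median 310.0). The KO libraries held 302.5 to 338.5 CPM (median 325.8) and 267.0 to 315.5 CPM (median 282.5). Within each of the 5 clones all 3 treated libraries lay below all 3 untreated libraries, as did 16.3% of all genes tested in WT1, 24.4% in WT2, 24.2% in WT3, 24.3% in KO1 and 20.4% in KO2, although the pooled ranges overlapped. Parp1 fell by 0.12 on the log2 scale in pooled WT (SE 0.031, adjusted p = 0.00481), a 1.09-fold decrease, and by 0.15 in pooled KO (SE 0.043, adjusted p = 0.0128). By clone the fall passed the threshold in WT3, KO1 and KO2 and not in WT1 (log2FC -0.16, adjusted p = 0.0939) or WT2 (-0.084, adjusted p = 0.051). Without WT3 the pooled WT log2FC was -0.12 with an adjusted p of 0.0657, and with counts summed per clone the call was lost in pooled WT (adjusted p = 0.421) and in pooled KO (adjusted p = 0.322). In single clones the call was lost without WT3 IFNG c, WT3 UT a or WT3 UT b in WT3 (adjusted p 0.0653 to 0.0718), without KO1 UT a or KO1 UT b in KO1 (0.0671 and 0.079) and without any 1 of 5 of the 6 libraries in KO2, all but KO2 IFNG b (0.0599 to 0.149), and in KO2 also with at least 10 counts in every library (0.053). In WT2 the fall passed without WT2 IFNG c (adjusted p = 0.043), and in WT1 it passed in a single fit over all 30 libraries (adjusted p = 0.01).

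The 3 unedited clones gave the scale against which the KO clones can be read, and they were not alike. Untreated levels differed among WT clones for Parp12, Parp9, Parp14 and Dtx3l, 4 of the 7 genes tested, while 59.5% of all genes did so. The largest difference between clones was 0.30 on the log2 scale for Parp12 (adjusted p = 3.73e-05), 0.23 for Parp9 (adjusted p = 0.00272), 0.22 for Parp14 (adjusted p = 0.00568) and 0.18 for Dtx3l (adjusted p = 0.0344). The Dtx3l call was lost under DESeq2 (adjusted p = 0.0679) and without WT2 UT b, WT2 UT c or WT3 UT b (adjusted p 0.0514 to 0.144). The IFNG response itself differed among WT clones for 3 of the 8 genes, against 2.3% of all genes. The log2FC of Parp9 ran from 2.29 in WT1 to 2.47 in WT2 and 2.82 in WT3, with a largest difference of 0.54 (adjusted p = 0.000123). Dtx3l followed the same order with 2.75, 2.85 and 3.16 (largest difference 0.43, adjusted p = 0.00461). Parp12 had 1.47 in WT1, 1.47 in WT2 and 1.71 in WT3 (largest difference 0.25, adjusted p = 0.0244). WT3 thus had the largest response of the WT clones for all 3 genes, and the Parp12 call was lost without WT2 IFNG a, WT3 IFNG b, WT3 IFNG c, WT3 UT a or WT3 UT c (adjusted p 0.0513 to 0.0955) and without a count filter (adjusted p = 0.0617). Parp10 did not pass in this comparison, but did so with no count filter (adjusted p = 0.00511), under DESeq2 (adjusted p = 0.03) and without WT1 IFNG c, WT2 IFNG b, WT3 IFNG c or WT3 UT a (adjusted p 0.0261 to 0.0479), and neither did Parp14, except without WT3 IFNG a (adjusted p = 0.0275).

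To ask whether the KO clones differed from the WT clones before treatment, untreated KO and WT libraries were compared. Of the 7 genes tested, 5 were lower in KO and 0 higher, while 26.6% of all 13886 genes passed the threshold and 14.4% were lower. The median log2FC of the 7 genes was -0.23. In bulk RNA, fewer cells that express a gene and less RNA per cell cannot be told apart. Dtx3l fell by 0.35 on the log2 scale from WT to KO (SE 0.057, adjusted p = 0.000313), a 1.27-fold lower level, and its libraries did not overlap between genotypes, as for 5.1% of all genes in this direction. Parp9 fell by 0.24 (SE 0.052, adjusted p = 0.00312) and Parp14 by 0.23 (SE 0.081, adjusted p = 0.0418). Parp10 (log2FC -0.10, adjusted p = 0.134) and Parp1 (-0.056, adjusted p = 0.208) did not pass the threshold.

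Parp11 fell by 0.27 (SE 0.066, adjusted p = 0.00671) and Parp12 by 0.23 (SE 0.058, adjusted p = 0.0085), and both lie on chromosome 6. The 689 other tested genes of chromosome 6 had a median log2FC of -0.27 in the same comparison, and 52.4% of them were called lower. Within 10 Mb the median was -0.34 over 167 genes around Parp11 and -0.30 over 110 genes around Parp12. The 412 other tested genes of chromosome 16, which carries Parp9, Dtx3l and Parp14, had a median of 0.017, and the median of all genes was -0.0004. The values of Parp11 and Parp12 were therefore close to those of their chromosome, and those of the chromosome 16 genes were below the median of theirs. The part of the chromosome 6 difference in the Parp11 and Parp12 values was not tested. Of the 8 macrophage markers, 4 were higher in untreated KO cells and 0 lower, while 26.6% of all genes were called in either direction and 14.4% were lower. Adgre1 had the largest difference of the markers (log2FC 2.39, SE 0.48, adjusted p = 0.00164). Its untreated libraries held 9.27 to 108.3 CPM in WT and 238.6 to 294.1 CPM in KO. The part of the markers in the differences of the genes described here was not tested either.

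The KO clones contributed unequally. In KO1, 5 of 7 genes were lower than in pooled WT (25.7% of all genes called, 14.6% lower), with log2FC of -0.44 for Dtx3l (SE 0.069, adjusted p = 0.000595), -0.43 for Parp14 (SE 0.074, adjusted p = 0.000905) and -0.29 for Parp9 (SE 0.068, adjusted p = 0.00714), and with Parp12 and Parp11 at adjusted p of 0.0252 and 0.0477. The Parp11 and Parp12 calls were lost without any 1 of the 3 KO1 libraries (adjusted p 0.0551 to 0.209) and without WT2 (0.0926 and 0.052), and that of Parp12 also without WT3 (0.073) and that of Parp11 with no count filter (0.112). In KO2, Dtx3l alone of 8 genes passed (11.6% of all genes called, 6.7% lower), with a log2FC of -0.26 (SE 0.068, adjusted p = 0.024), and this call was lost without WT2 or without any 1 of the 3 KO2 libraries (adjusted p 0.0645 to 0.123). Parp14 in KO2 was at -0.061 (SE 0.074, adjusted p = 0.687). As clone means, both KO clones lay below all 3 WT clones when untreated for Parp9, Dtx3l, Parp10, Parp11 and Parp12, 5 of the 8 genes against 15.7% of all genes tested, while KO2 lay within the WT range for Parp14 and Parp1. Without KO1 the calls of Parp9 (-0.18, adjusted p = 0.104), Parp14, Parp11 (-0.29, adjusted p = 0.0519) and Parp12 (-0.19, adjusted p = 0.151) were lost. The Parp14 call was also lost without WT2 (adjusted p = 0.168) or WT3 (adjusted p = 0.121) and with no count filter (adjusted p = 0.0816). When counts were summed per clone, so that 2 KO clones were set against 3 WT clones, none of the 7 genes passed (adjusted p 0.351 or higher for the 5 called before). Only 1 gene of all those tested passed under this setting, so the loss is not particular to the 7.

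After IFNG, 1 of the 8 genes passed in KO against WT, while 23.9% of all genes did. Parp12 fell by 0.29 (SE 0.069, adjusted p = 0.00571), with KO libraries at 132.5 to 140.0 CPM and WT libraries at 142.0 to 189.4 CPM and no overlap, as for 4.76% of all genes in this direction. The chromosome 6 median was -0.26 here too. The Parp12 call was lost without KO1 (-0.30, adjusted p = 0.0687) or KO2 (-0.28, adjusted p = 0.0564), which leaves 1 KO clone. Dtx3l had a log2FC of -0.23 (SE 0.083, adjusted p = 0.0573), Parp10 -0.21 (SE 0.074, adjusted p = 0.0524), Parp9 -0.13 (SE 0.071, adjusted p = 0.212) and Parp14 0.13 (SE 0.066, adjusted p = 0.175). The WT1 libraries were the lowest treated WT libraries for Dtx3l and Parp9, and without WT1 Dtx3l was at -0.34 (adjusted p = 4.66e-05), Parp10 at -0.30 (adjusted p = 0.000757) and Parp9 at -0.23 (adjusted p = 0.000576). Over the 11 alternatives the log2FC of Dtx3l ran from -0.34 to -0.12, with 4 called. That of Parp10 ran from -0.30 to -0.14, with 4 called, and that of Parp9 from -0.23 to -0.044, with 2 called. For each KO clone alone, edgeR called 0 of 8 genes, with 20.9% of all genes called in KO1 and 10.0% in KO2. An unadjusted p under 0.05 was found for 3 genes in each clone (33.7% of all genes in KO1 and 23.4% in KO2), and DESeq2 called 2 genes in KO1 (23.9% of all genes) and 1 in KO2 (13.4%).

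**Figure D5:**
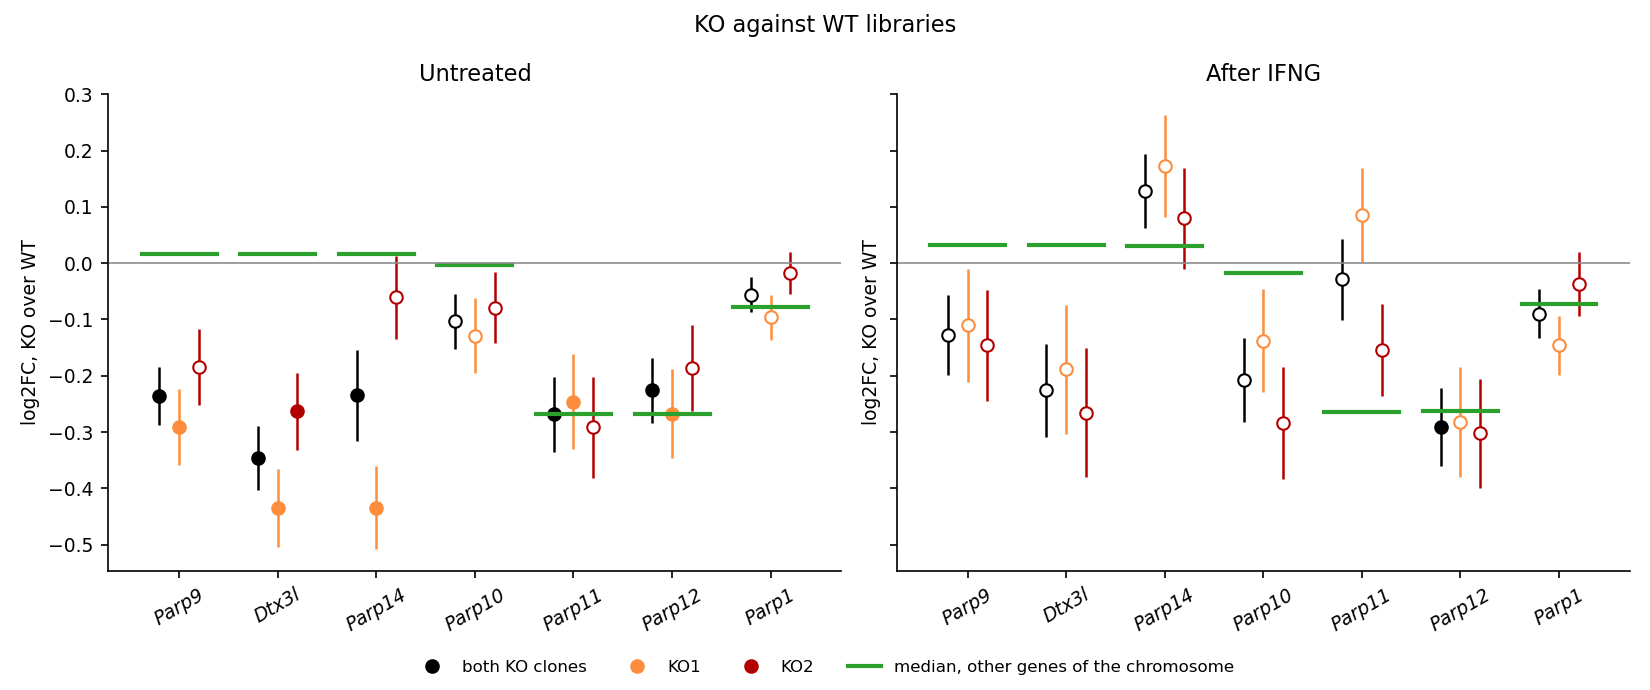
KO over WT difference of 7 genes (log2FC with its standard error) in untreated libraries (left) and after IFNG (right), for both KO clones together and for each against pooled WT, where filled points passed an adjusted p of 0.05. Green bars are the median log2FC, in both KO clones together, of the other genes on the same chromosome, at -0.27 (left) and -0.26 (right) for Parp11 and Parp12 and at 0.017 and 0.032 for the chromosome 16 genes.

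The difference in IFNG response between genotypes was tested as an interaction over all 30 libraries. Parp14 was the 1 gene of 8 that passed, against 1.02% of the 14682 genes tested (0.681% with a larger response in KO), with a response that was larger in KO by 0.37 on the log2 scale (SE 0.075, adjusted p = 0.00754). The responses of Parp14 in KO1 (4.09) and KO2 (3.62) and in WT3 (3.62) show that it was KO1 that stood apart, and without KO1 the difference was 0.14 (adjusted p = 0.718). It was 0.31 without WT2 (adjusted p = 0.157) and 0.36 with counts summed per clone (adjusted p = 0.686), a setting in which 2 of all genes passed. Without WT3, Parp9 (0.26, adjusted p = 0.0174) and Dtx3l (0.24, adjusted p = 0.0455) passed as well. Treated Parp14 levels did not pass the threshold between genotypes, except without WT3 (log2FC 0.22, adjusted p = 0.00945) and in the single fit over all 30 libraries (0.13, adjusted p = 0.000847), and untreated levels were lower in KO1. Among the genes of the treatment check, the interaction was also positive and past the threshold for Irf9 (0.35, adjusted p = 0.00681), an interferon regulatory factor, and for Gbp2b (0.85, adjusted p = 0.000172), which encodes a guanylate-binding protein. Both calls were lost without KO1 (adjusted p = 0.233 and 0.0761), and that of Irf9 also without WT2 (adjusted p = 0.156). In untreated cells Irf9 was lower in KO (log2FC -0.50, SE 0.10, adjusted p = 0.00188, and 0.0528 without KO1) and so was Gbp2b (log2FC -0.47, SE 0.12, adjusted p = 0.00639, and 0.146 without KO1). As mean log2(CPM + 0.5) per clone, the response of Parp14 was larger in KO clones by 0.37, that of Parp11 by 0.22 and that of Parp8 by 0.68, and for these 3 genes both KO clones lay above all WT clones, as for 10.3% of all genes tested. With a pseudocount of 2 CPM the Parp8 difference was 0.29. The two-sided exact permutation test over clones gave p = 0.2 for each of the 3 (adjusted over the 8 genes 0.533), which is the smallest value that 3 against 2 clones allows. The other 5 genes had p of 0.4 to 0.8 in the same exact permutation test.

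Of 9 further PARP family genes, all tested, 3 rose and 1 fell in pooled WT, where 14.8% of all genes rose and 13.9% fell, and their median log2FC was 0.15. Parp3, a mono-ADP-ribosyltransferase of DNA break repair, rose by 1.37 (SE 0.049, adjusted p = 1.36e-14), close to Parp11. Zc3hav1, which encodes the zinc-finger antiviral protein and lacks catalytic activity, rose by 0.64 (SE 0.058, adjusted p = 2.46e-08), and Parp16, which encodes a protein of the endoplasmic reticulum, fell by 0.72 (SE 0.10, adjusted p = 1.35e-05, and 0.06 with counts summed per clone). The third to rise, the tankyrase gene Tnks2, had a log2FC of 0.15 (adjusted p = 0.0225), lost without WT2 (0.0512) or WT3 (0.293), and was named outside the rule for named genes. In untreated KO against WT cells, 4 of these 9 were lower, against 14.4% of all genes, led by Parp3, which fell by 0.53 (SE 0.056, adjusted p = 5.83e-06). Parp3 also had a larger response in KO (interaction 0.28, adjusted p = 0.0235), a call that was lost without KO1 (adjusted p = 0.772), WT2 (0.113) or WT3 (0.15).

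Of the other Deltex ligase genes, 0 of 3 tested rose and 2 fell in pooled WT, Dtx4 by 1.47 (SE 0.083, adjusted p = 2.11e-11) and Dtx2 by 0.29 (SE 0.079, adjusted p = 0.0081, and 0.139 without WT3), so Dtx3l was the 1 tested Deltex gene that rose. Of 8 genes that remove or bind ADP-ribose, 1 rose, the macrodomain gene Gdap2 (log2FC 0.18, SE 0.037, adjusted p = 0.00095, and 0.222 with counts summed per clone), and the median was 0.017. Of 9 genes of NAD synthesis and use, 1 rose, Nampt, which encodes the rate-limiting enzyme of NAD salvage, with a log2FC of 2.36 (SE 0.049, adjusted p = 2.5e-18), and the median was -0.0035. Of all genes tested in pooled WT, 14.8% rose and 13.9% fell, so 1 of 8 and 1 of 9 rising are not above the share of all genes. In untreated KO against WT cells, 3 of the 8 ADP-ribose genes were lower and 1 was higher, where 14.4% of all genes were lower and 26.6% were called.

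The genes with the profile most like that of Parp9 were sought over the 10 clone-by-treatment means of log2(CPM + 0.5), each centred on its own mean, as the smallest Euclidean distance among 12992 other genes. They were Fcgr4, an Fc gamma receptor gene (distance 0.425), Cd83, an activation marker of antigen-presenting cells (0.473), and Nampt (0.501), and Dtx3l held place 9 (0.661). For Parp14 they were Gm49730 (0.540), which overlaps it, Tnfsf10, which encodes the death ligand TRAIL (0.837), and Gm4070 (0.855), and Dtx3l held place 22 (1.13). Cd83, Gm49730 and Tnfsf10 had low untreated means in WT libraries (1.39, 1.815 and 2.11 CPM). At such levels the 0.5 added before the logarithm shrinks a response. The pooled WT log2FC of Cd83 was 3.12, further from that of Parp9 (2.53) than that of Dtx3l (2.93). The distances describe the 10 means, which share libraries and the size of the IFNG response.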

How the data were processed

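RNA-seq libraries were made with a kit that marks strand. The values the authors deposited are raw fragment counts for each gene: reads were trimmed with BBDuk, aligned to mm10 with HISAT2 2.1.0, filtered to unique alignments, merged over technical replicates with SAMtools 1.10 and counted with featureCounts 1.6.2, with fragments over overlapping genes of a strand counted for each. The methods name a RefSeq annotation and the file header Gencode vM18. For these libraries the methods do not list the option that counts a fragment for each overlapping gene, which they list for re-analysed data of other studies. The table of 30 libraries was used, and 13 of 13 other tables held the same counts. WT1, WT2 and WT3 were tied to columns through the per-clone tables. The 8 genes and all gene lists were chosen with earlier results of these data known.

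Counts were tested in R 4.3.3 with edgeR 4.0.16 (filterByExpr with a minimum of 10 counts, TMM, glmQLFTest) and, as an alternative, DESeq2 1.42.0, both also run on simulated data. The SE is the absolute log2FC over the square root of F. CPM used TMM factors from 14870 genes. Named from other lists were up to 3 genes with the largest absolute log2FC among those past 0.05 in pooled WT whose mean in any group reached 1 CPM. From the treatment check and the markers any gene could be named. Some genes of these lists are not reported here. Nothing says that the libraries of a clone came from separate cultures, so p-values measure the spread between libraries, which may be technical. The main models of the pooled responses and of KO against WT left clone out. Their spread therefore mixes differences within and between clones, and libraries of a clone were treated as independent. All 30 pairs of libraries within a group differed by more than sampling noise (chi-square per degree of freedom 1.95 to 19.5). The total of 15566122 to 37992642 fragments per library sets the precision that each SE shows. The RNA input and the adapters varied per the labels, which do not say for which libraries, so no batch could be examined. Alternatives were RLE factors, other count filters, DESeq2, a single fit over 30 libraries, a clone block, counts summed per clone and left-out libraries or clones. Python 3.11.15, scipy 1.17.1 and matplotlib 3.10.9 were used for exact tests and figures.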

Additional observations from a re-analysis of the deposited data

Results flagged for a closer look

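For 4 genes an effect differed between groups of clones under the test of the difference itself. The IFNG response of Parp14 was larger in KO than in WT by 0.3655 on the log2 scale. Among the WT clones the largest difference in IFNG response was 0.5431 for Parp9, 0.4256 for Dtx3l and 0.25 for Parp12. Of 32 groups of 6 or 9 libraries (8 genes, 2 genotypes and 2 treatments), none had a library whose gap to its neighbour passed the critical value of Dixon's test.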

How the results depend on the processing

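No paired analysis was possible because the columns of the count table carry no replicate numbers, and leaving out a replicate number in turn was not run for the same reason. Instead, each of the 30 libraries was left out of the responses by clone, an alternative added after the data were seen. In pooled WT and pooled KO the calls of Parp9, Dtx3l, Parp14, Parp10, Parp11 and Parp12 held under all alternatives run. Differences between genotypes depended on the model. For KO against WT, untreated, the number of genes called was 0 with counts summed per clone (main 5) and 1 to 5 when a clone was left out. For KO1, untreated, it was 3 to 6 (main 5) when a library or clone was left out. For KO2, untreated, it was 2 with RLE factors, 2 with DESeq2, 4 in the single fit and 0 to 3 when a library or clone was left out (main 1). After IFNG it was 3 with at least 10 counts in every library, 4 with DESeq2, 7 in the single fit, 0 with summed counts and 0 to 5 when a clone was left out (main 1). After IFNG it was 2, 2 and 7 for KO1 with the same first 3 settings and 0 to 6 when a library or clone was left out, and 1 with DESeq2, 6 in the single fit and 0 to 4 for KO2 (main 0 in both). For the interaction it was 0 with summed counts and 0 to 3 when a clone was left out (main 1). Reversed in sign, with no call on either side, were Parp8 in untreated KO2 (-0.13 without KO2 UT a, -0.15 without WT2, up to 0.40 without KO2 UT c), Parp11 in KO against WT after IFNG (0.086 without KO2, 0.044 without WT1), Parp1 in KO2 after IFNG (0.0083 without KO2 IFNG c, down to -0.072 without KO2 IFNG b) and the interaction of Parp12 (0.012 without WT3, down to -0.11 without KO1). The single fit uses the spread within clones, and summed counts that between clones. With summed counts, 1 gene of all was called in untreated KO against WT, 1 after IFNG and 2 for the interaction. Over all genes, the number called ranged from 1231 (summed counts) to 6571 (single fit) in pooled WT (main 3840), from 1247 to 5949 in pooled KO (main 4246), from 1 to 7143 in untreated KO against WT (main 3689), from 1 to 7194 after IFNG (main 3258), from 2339 to 7132 in untreated KO1 (main 3658), from 825 to 5625 in untreated KO2 (main 1674), from 1691 to 6912 in treated KO1 (main 2934), from 533 to 5358 in treated KO2 (main 1411), from 2 to 570 for the interaction (main 150) and from 256 to 578 for the response among WT clones (main 330). Other causes of these changes were not tested. Depth limits the 1 to 42 fragments of Parp8.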
